A study of Mus musculus with 4 samples.

Results

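The genes described here are 10 genes of acetylcholine transmission, picked by symbol from the 32531 gene rows of the count files. Of these, 5 are markers of cholinergic neurons (Chat, Slc5a7, Slc18a3, Ache and Lhx8) and 5 encode the muscarinic acetylcholine receptors (Chrm1 to Chrm5). The rule uses gene symbols alone. The samples were 4 libraries of total RNA from mice aged over 20 months, 2 from dissected dorsal striatum and 2 from dissected nucleus accumbens, and the 2 regions were compared. All mice, in both groups, carried the Drd1-TRAP transgene of line CP73, in which the Drd1 promoter drives EGFP fused to the ribosomal protein Rpl10a. The labels call all 4 libraries input, taken here as RNA of the whole dissected tissue before any pull-down of tagged ribosomes, so the transgene did not select the RNA. The labels name no treatment, sex or background strain, and do not say whether libraries came from separate or pooled animals.

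In the striatum most acetylcholine comes from cholinergic interneurons, a sparse class of large, tonically active cells. They make acetylcholine with choline acetyltransferase, load it into vesicles and take choline back up after acetylcholinesterase has split the transmitter. Muscarinic receptors on spiny projection neurons (SPNs), on the interneurons themselves and on incoming axons read the signal. The M1, M3 and M5 receptors couple to Gq and phospholipase C, and the M2 and M4 receptors to Gi/o, which lowers cAMP.

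All 10 genes were detected in every library, with 18 to 1091 raw counts each, and all 10 passed the filter on low counts. Depth was 8478403 to 11849134 counts assigned to genes per library. None of the 10 genes passed the threshold for a regional difference (adjusted p under 0.05 in edgeR's quasi-likelihood test over 14493 genes), where 1.28% of all tested genes did (0.994% with accumbens higher, 0.29% with dorsal striatum higher). At an unadjusted p under 0.05 the count was 2 of 10, both higher in accumbens (Chrm1 and Chrm4), against 10.9% of all tested genes in that direction, 8.27% in the other and 19.2% in either. DESeq2 called 1 of the 10 (Chrm1, higher in accumbens), where it called 4.15% of all tested genes higher, and limma-voom called 0 (2.14%). The 2 libraries of a region did not overlap those of the other in 4 of the 10 (Ache, Chrm1, Chrm4 and Chrm5), all with accumbens higher, and 25.6% of all tested genes had that order, the same share as the opposite order (51.2% in either). The median log2 fold change (accumbens over dorsal striatum) was −0.13 over the 5 cholinergic neuron genes and 0.54 over the 5 receptor genes, beside 0.02 over all tested genes.

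Libraries of the same region differed from each other. Accumbens replicate 1 was lower than accumbens replicate 2 in Slc5a7 and Lhx8 but higher in Chat, Slc18a3 and Ache, and dorsal striatum replicate 1 was below replicate 2 in all 5 of these genes, by the least in Slc5a7. Without accumbens replicate 2 the count of members past the threshold was 3 (Ache, Chrm1 and Chrm4). In that fit the lone accumbens library is assumed to spread as the dorsal striatum pair does, and 4464 genes passed in place of 186 (15.5% of tested genes with accumbens higher and 13.5% with dorsal striatum higher). Leaving out accumbens replicate 1 gave 2789 genes (10% and 8.13%), leaving out dorsal striatum replicate 1 gave 109 (0.528% and 0.182%) and leaving out dorsal striatum replicate 2 gave 167 (0.858% and 0.227%). Counts of list members with a library left out, given below, are to be read against these shares. The tissue labels were checked against marker genes. The 14 SPN markers were all tested. They summed to 7567 and 7718 CPM (counts relative to library size, scaled by TMM) in dorsal striatum replicates 1 and 2. In accumbens replicates 1 and 2 they summed to 6897 and 5710 CPM, so both accumbens libraries were lower in the sum. The single markers did not share a direction, with 6 positive and 8 negative fold changes (accumbens over dorsal striatum). Abundant genes weigh most in the sum, such as Rgs9 (1590 and 1314 CPM in dorsal striatum, 659 and 663 in accumbens). Pdyn went the other way (65.0 and 77.7 CPM against 188 and 162). The 11 markers of cortical glutamatergic neurons summed to 160 and 70.5 CPM in dorsal striatum and to 386 and 224 CPM in accumbens, in replicates 1 and 2, and of these Neurod6 was at 0 in dorsal striatum replicate 2. Markers of hypothalamus, septum and pallidum, regions that border the striatum or lie near it, summed over 9 genes to 55.9 and 108 CPM in dorsal striatum and to 58.1 and 91.3 CPM in accumbens, so replicate 2 was the higher library in each region. Astrocyte markers summed to 2101 to 3418 CPM, oligodendrocyte markers to 1796 to 2888 and vascular and ependymal markers to 14.6 to 40.9, with the regions overlapping in each sum. Single genes could still differ. Of 10 tested astrocyte genes 1 passed, higher in accumbens, as did 1 of 5 tested genes of hypothalamus, septum and pallidum (0.994% of all tested genes). Both counts were 0 with upper-quartile scaling. Microglia markers summed to 98.9 and 64.2 CPM in dorsal striatum and to 140 and 100 CPM in accumbens, just above the highest dorsal striatum library. The part of these cell types in the differences below was not tested.

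Choline acetyltransferase, the enzyme that makes acetylcholine, is encoded by Chat (ENSMUSG00000021919.8, chromosome 14, 32408203 to 32465989, minus strand, GRCm38). Slc18a3 (ENSMUSG00000100241.1, chromosome 14, 32462438 to 32464850, minus strand) encodes VAChT, the transporter that fills synaptic vesicles with acetylcholine. Slc18a3 is a gene of 1 exon that lies inside the span of Chat on the same strand and shares 0 exon bases with it in the GENCODE annotation. Such an arrangement of the 2 genes is known as the cholinergic gene locus. The bases before the start of each gene are shown because both are read from this locus. They are from the RefSeq promoter table (GRCm38.p6), without bases that lie in a GENCODE exon, in 5′ to 3′ order of the minus strand, for Chat at chr14:32465990-32466159 and for Slc18a3 at chr14:32464851-32465041. Capitals mark TGACG, the core of a cAMP response element, and the GC box GGGCGG, read on either strand (CGTCA and CCGCCC on the other), and no 2 marked motifs overlap.
Chat: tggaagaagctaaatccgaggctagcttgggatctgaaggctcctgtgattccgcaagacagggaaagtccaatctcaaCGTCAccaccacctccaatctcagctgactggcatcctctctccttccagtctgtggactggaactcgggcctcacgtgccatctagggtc
Slc18a3: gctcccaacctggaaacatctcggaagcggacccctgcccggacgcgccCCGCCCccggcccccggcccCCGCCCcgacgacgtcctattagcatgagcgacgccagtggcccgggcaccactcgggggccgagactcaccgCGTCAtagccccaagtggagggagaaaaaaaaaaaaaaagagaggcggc
The promoter table held 9 of the 10 genes. Over the 250 bases before the start, TGACG was in Chat and Slc18a3 alone among these 9 (17.9% of 32536 windows of the table held it), and GGGCGG was in 4 of the 9 (33.0% of windows). TAATTA, the core bound by LIM-homeodomain factors such as the protein of Lhx8, was in 1 of the 9, Chrm5 (4.84% of windows). For Ache, Chrm4 and Chrm5 the bases after the start in the promoter table were not found in a GENCODE transcript of the gene. Their windows, the TAATTA window of Chrm5 among them, may thus not lie before a GENCODE start.

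Chat stood at 16.7 and 20.7 CPM in dorsal striatum replicates 1 and 2, and at 17.5 and 14.3 CPM in accumbens replicates 1 and 2. The groups overlapped, with means of 18.7 ± 2.84 and 15.9 ± 2.27 CPM (SD, n = 2 each). The log2 fold change was −0.24 (SE 0.29, adjusted p = 0.71 in edgeR). The 95% interval of the ratio of accumbens to dorsal striatum ran from 0.537 to 1.34, so a higher level in either region within these bounds could not be told from none at this depth and replication. In bulk tissue, fewer cells of a type and less RNA per cell cannot be told apart.

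Slc18a3 stood at 13.9 and 26.5 CPM in dorsal striatum and at 17.3 and 15.0 CPM in accumbens. Dorsal striatum replicate 2 was the high library, and both accumbens libraries lay between the 2 dorsal striatum libraries. The log2 fold change was −0.32 (SE 0.35, adjusted p = 0.676 in edgeR), with a 95% interval of the ratio from 0.457 to 1.4. Without dorsal striatum replicate 2 it was 0.22, the opposite sign. Slc18a3 had 0.83 and 1.28 counts per count of Chat in dorsal striatum and 0.993 and 1.05 in accumbens, so the 2 genes of the locus kept a closer ratio in the accumbens pair.

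Slc5a7 (chromosome 17, 54273590 to 54299034) encodes the high-affinity choline transporter, which brings choline back into the cholinergic terminal. It had the closest pair of values, 47.1 and 47.3 CPM in dorsal striatum, and stood at 36.4 and 49.9 CPM in accumbens. The dorsal striatum libraries lay between the 2 accumbens libraries. The log2 fold change was −0.13 (SE 0.21, adjusted p = 0.796 in edgeR). The interval of the ratio, 0.656 to 1.27, was the narrowest of the 5 cholinergic neuron genes.

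Lhx8 (chromosome 3, 154306294 to 154330659) encodes a LIM-homeodomain transcription factor that specifies forebrain cholinergic neurons. Its levels were 14 and 17.3 CPM in dorsal striatum and 11 and 21.1 CPM in accumbens. The accumbens libraries were the lowest and the highest of the 4. The log2 fold change was 0.04 (SE 0.37, adjusted p = 0.973 in edgeR), and its sign flipped under scaling by the upper quartile (−0.01) or by library size only (−0.13). Without accumbens replicate 1 it was 0.43, and without accumbens replicate 2 it was −0.51.

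Ache (chromosome 5, 137287519 to 137294466) encodes acetylcholinesterase, which splits acetylcholine outside the cell. It was the only one of the 5 cholinergic neuron genes whose groups did not overlap. Ache stood at 33.7 and 54.1 CPM in dorsal striatum and at 65.9 and 62.3 CPM in accumbens. Both accumbens libraries were above both dorsal striatum libraries, and dorsal striatum replicate 1 was the lowest by a wide gap. The means were 64.1 ± 2.58 against 43.9 ± 14.4 CPM, which gave a log2 fold change of 0.54 (SE 0.24), and the edgeR adjusted p of 0.263 missed the threshold. The value was 0.22 without dorsal striatum replicate 1 and 0.92 without dorsal striatum replicate 2. Without accumbens replicate 2 the edgeR adjusted p was 0.0437, in a range of 0.0437 to 1 over 15 alternatives. Relative to Chat in the same library, Ache had 2.02 and 2.61 counts per count in dorsal striatum and 3.77 and 4.37 in accumbens. Relative to Slc5a7 the ratios were 0.717 and 1.14 against 1.81 and 1.25. Both accumbens ratios were above both dorsal striatum ratios with either gene. With Slc5a7 the gap was small between accumbens replicate 2 (1.25) and dorsal striatum replicate 2 (1.14). Its GC content of 60.4% put it in the highest of 10 equal sets of genes by GC content, where the tested genes had a median log2 fold change of 0.31. Slc18a3, at 61.2%, was in the same set of genes.

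**Figure D1:**
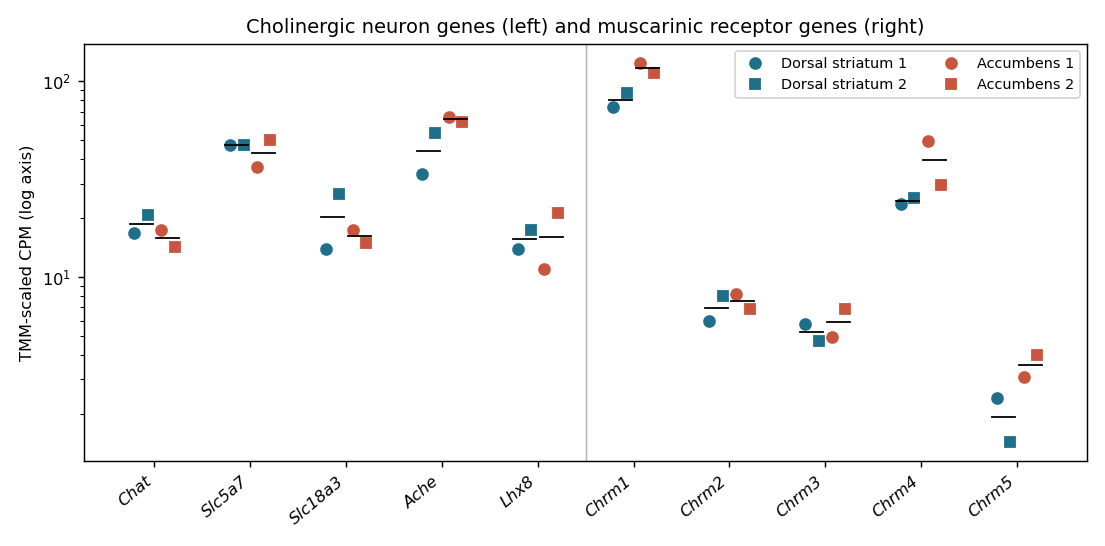
Level of each of the 10 genes in each of the 4 libraries, in TMM-scaled CPM on a log axis. Points are libraries, horizontal bars are means of the 2 libraries of a region; the accumbens points lie above both dorsal striatum points in Ache, Chrm1, Chrm4 and Chrm5, and the groups overlap in the other 6 genes.

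Among the Gq-coupled receptors, Chrm1 (ENSMUSG00000032773.9, chromosome 19, 8663789 to 8683587) encodes the M1 receptor, the main excitatory muscarinic receptor of both SPN classes. Chrm1 stood at 74.0 and 86.9 CPM in dorsal striatum and at 124 and 110 CPM in accumbens, with counts of 704 to 1091. The groups did not overlap, and the gap between them was wider than the gap within either pair. The means were 117 ± 9.54 against 80.5 ± 9.17 CPM, a ratio of 1.46 with a 95% interval of 1.13 to 1.88 before any adjustment for the number of genes. The log2 fold change was 0.54 (SE 0.16), and the edgeR adjusted p of 0.126 missed the threshold. It passed with DESeq2 (adjusted p = 0.0484), without a low-count filter (0.0488) and without accumbens replicate 2 (0.0069), and over the 15 alternatives the adjusted p ranged from 0.0069 to 0.967 with the fold change between 0.37 and 0.66. M1 receptors are also made by cortical pyramidal neurons, whose marker Slc17a7 stood at 32.3 and 0.717 CPM in dorsal striatum and at 198 and 79.4 CPM in accumbens.

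Chrm3 (chromosome 13, 9875486 to 10360847), the gene of the M3 receptor, was near the bottom of the 5. Its levels were 5.78 and 4.70 CPM in dorsal striatum and 4.96 and 6.88 CPM in accumbens, from 40 to 59 counts. The groups overlapped, and the log2 fold change was 0.18 (SE 0.47, adjusted p = 0.885 in edgeR). The 95% interval of the ratio ran from 0.532 to 2.4.

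Chrm5 (chromosome 2, 112479171 to 112480769), the gene of the M5 receptor best known from midbrain dopamine neurons, had the fewest counts. It was at 2.42 and 1.43 CPM in dorsal striatum and at 3.10 and 4.0 CPM in accumbens, from 23, 18, 25 and 32 counts. Both accumbens libraries were above both dorsal striatum libraries. The exact 95% Poisson intervals of the level ran from 1.53 to 3.63 CPM in dorsal striatum replicate 1 and from 2.00 to 4.57 CPM in accumbens replicate 1, so these 2 libraries overlapped within counting error alone. Such intervals cover counting error only, since reads carry no molecular identifiers. The log2 fold change of 0.88 (SE 0.68, adjusted p = 0.531 in edgeR) was the largest of the 10 genes and had the widest interval, a ratio of 0.621 to 5.49.

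Among the Gi/o-coupled receptors, Chrm4 (ENSMUSG00000040495.4, chromosome 2, 91927249 to 91928688) encodes the M4 receptor, which is concentrated in SPNs of the direct pathway, the Drd1-expressing class. Chrm4 stood at 23.6 and 25.3 CPM in dorsal striatum and at 49.8 and 29.5 CPM in accumbens. Both accumbens libraries were above the dorsal striatum pair, replicate 1 by far the most. The means were 39.7 ± 14.4 against 24.5 ± 1.15 CPM, which gave a log2 fold change of 0.70 (SE 0.28), and the edgeR adjusted p of 0.225 missed the threshold. Without accumbens replicate 1 the fold change was 0.27, and without accumbens replicate 2 it was 1.02 with an edgeR adjusted p of 0.000535, in a range of 0.000535 to 0.969 over 15 alternatives. The interval of the ratio before adjustment ran from 1.04 to 2.52. Its GC content of 57.0% lay in the ninth of 10 equal groups of genes by GC content, with a median log2 fold change of 0.22.

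Chrm2 (chromosome 6, 36388084 to 36528414) encodes the M2 receptor, an autoreceptor of cholinergic interneurons. Its levels were 5.99 and 7.97 CPM in dorsal striatum and 8.18 and 6.88 CPM in accumbens. The groups overlapped, with a log2 fold change of 0.11 (SE 0.41, adjusted p = 0.925 in edgeR) that turned to −0.07 with library size alone. The interval of the ratio was 0.561 to 2.06.

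**Figure D2:**
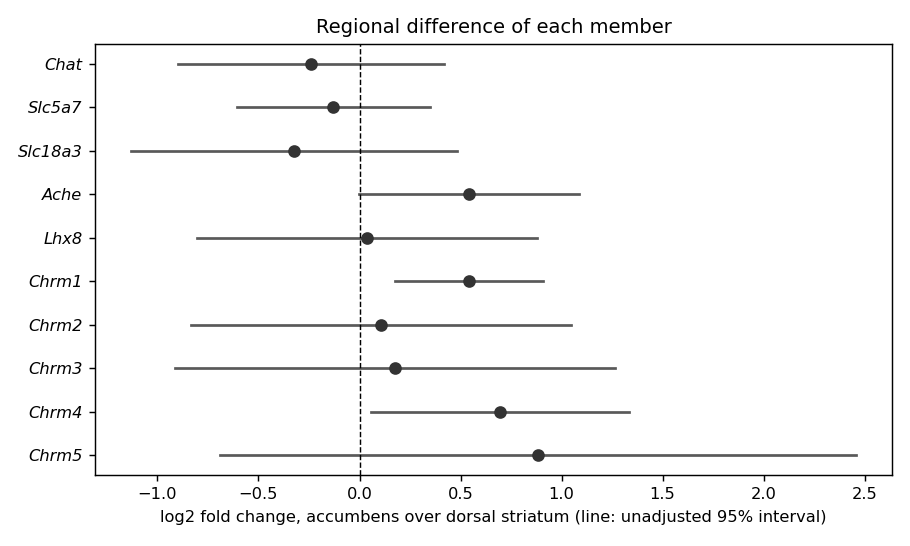
Log2 fold change of each of the 10 genes, accumbens over dorsal striatum, from edgeR (points) with its 95% interval before adjustment for the number of genes (lines). The interval excludes 0 for Chrm1 (0.18 to 0.91) and Chrm4 (0.06 to 1.33) and includes 0 for the other 8 genes; no gene passed the threshold after adjustment.

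Both SPN receptor genes were also set against the dopamine receptor genes of the SPNs, which needs no scaling between libraries. Drd1 marks direct pathway SPNs and Drd2 marks indirect pathway SPNs and is also made by cholinergic interneurons. Drd1 stood at 293 ± 10.2 CPM in dorsal striatum and 239 ± 26.8 in accumbens (log2 fold change −0.29, adjusted p = 0.273 in edgeR), and Drd2 had a log2 fold change of −0.15 (adjusted p = 0.651 in edgeR). Chrm1 had 0.247 and 0.304 counts per count of Drd1 in dorsal striatum and 0.481 and 0.503 in accumbens. Per count of Drd2 the values were 0.567 and 0.689 against 0.978 and 1.06. Chrm4 had 0.0788 and 0.0884 counts per count of Drd1 in dorsal striatum and 0.193 and 0.134 in accumbens. Per count of Drd2 they were 0.181 and 0.2 against 0.393 and 0.282. In all 4 ratios both accumbens libraries were above both dorsal striatum libraries. Part of the gap against Drd1 lies in Drd1 itself, which was lower in both accumbens libraries. With Ppp1r1b, the gene of the SPN phosphoprotein DARPP-32, as the denominator, Chrm1 gave 0.0740 and 0.0691 against 0.115 and 0.116, a tight pair in each region. No test was run on these ratios.

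**Figure D3:**
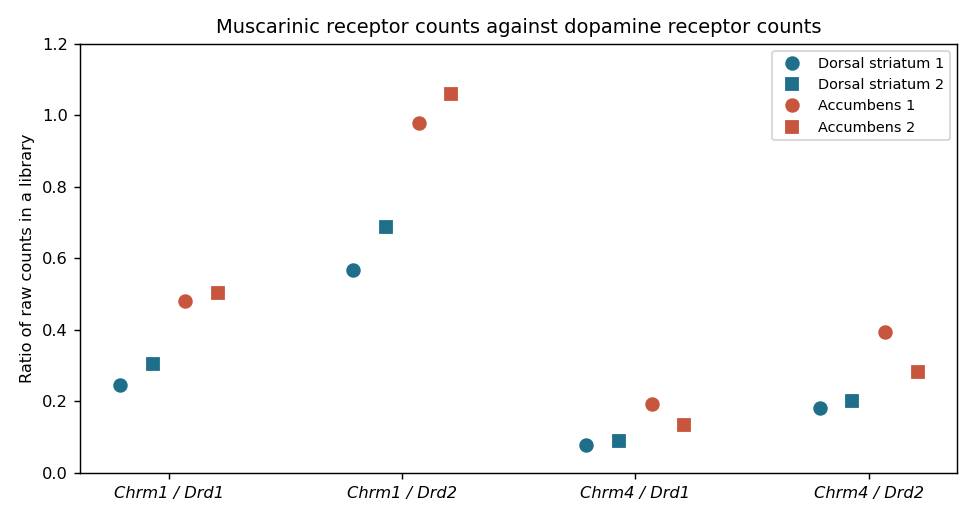
Raw counts of Chrm1 and Chrm4 per raw count of Drd1 or Drd2 in each library, on a linear axis from 0. Each point is 1 library; in each of the 4 ratios the accumbens points lie above the dorsal striatum points, from 0.481 to 0.503 against 0.247 to 0.304 for Chrm1 over Drd1.

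Levels were compared between genes as CPM per kb of the longest protein-coding transcript. Over the 4 libraries Ache (24.7), Chrm4 (22.3) and Chrm1 (15.8) were highest, Slc5a7 (8.72), Lhx8 (7.64), Slc18a3 (7.53) and Chat (6.05) came next, and Chrm5 (1.71), Chrm3 (1.29) and Chrm2 (1.28) were lowest, all as mean CPM per kb. The ranges over libraries of Ache (15.4 to 30.1), Chrm4 (16.4 to 34.6) and Chrm1 (11.8 to 19.8) overlapped each other, as did those of Slc5a7, Lhx8, Slc18a3 and Chat and those of Chrm5, Chrm3 and Chrm2, in values pooled over the 4 libraries. Within libraries, Chrm4 was above Chrm1 in 4 of 4, Slc5a7 above Lhx8, Slc18a3 above Chat and Chrm5 above Chrm3 in 3 of 4 each, and Ache above Chrm4, Lhx8 above Slc18a3 and Chrm3 above Chrm2 in 2 of 4 each. With this length the 3 sets did not overlap: the lowest value of the first, 11.8 for Chrm1, was above the highest of the next, 11 for Slc18a3, and that set's lowest value, 4.99 for Chat, was above 2.50 for Chrm5. The annotated models of Chrm4 and Chrm5 hold coding length only (1440 and 1599 bases). If reads were counted over longer models, their per-length values are too high. With merged exons as the length the mean was 11.7 for Ache, 3.68 for Chat and 0.892 for Chrm3. Ache then ran from 7.30 to 14.3 CPM per kb, within reach of Slc5a7 (6.45 to 8.84) and Slc18a3 (5.75 to 11), so the gap between the upper sets was lost, while Chat at its lowest (3.03) was still above Chrm5.

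Ratios between the libraries of 1 region were given an exact interval for counting error. In accumbens, replicate 2 over replicate 1 was 1.92 for Lhx8 (95% interval 1.47 to 2.51) and 1.37 for Slc5a7 (1.18 to 1.60), and it was 0.592 for Chrm4 (0.502 to 0.698) and 0.891 for Chrm1 (0.813 to 0.977). The other 6 genes had intervals that held 1. Among those 6 were the other cholinergic neuron genes, Chat (0.816), Slc18a3 (0.865) and Ache (0.945), which lay below 1 like both receptor genes, so the 5 cholinergic neuron genes did not share an order in the accumbens pair. In dorsal striatum the ratio was 1.91 for Slc18a3 (1.55 to 2.35), 1.60 for Ache (1.40 to 1.84), 1.24 for Chat (1.01 to 1.52) and 1.18 for Chrm1 (1.07 to 1.29), all higher in replicate 2. These intervals compare libraries, not regions. The median fold between the 2 libraries, in either direction, was 1.26 over the 10 genes and 1.32 over all tested genes in accumbens, and 1.24 against 1.15 in dorsal striatum.

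**Figure D4:**
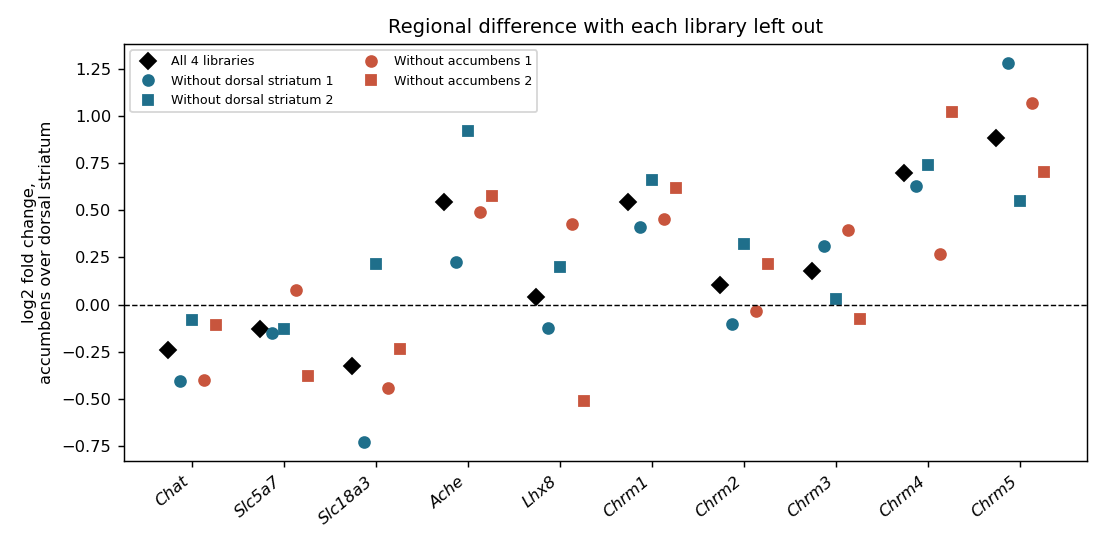
Log2 fold change of each of the 10 genes, accumbens over dorsal striatum, with all 4 libraries (black) and with each library left out in turn. Chrm1, Chrm4, Chrm5 and Ache stay above 0 and Chat below 0 in all 5 fits, while Lhx8 runs from −0.51 to 0.43.

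Other genes known from cholinergic neurons were read from a list of 12, of which 10 were tested and 0 passed in either direction. The count was 0 also at an unadjusted p under 0.05 in edgeR, and 0 with DESeq2 and limma-voom. Of all tested genes 1.28% passed in edgeR, and 19.2% had an unadjusted p under 0.05. The list had 4 positive and 6 negative fold changes and a median of −0.09. Isl1, a LIM-homeodomain factor that acts with Lhx8, stood at 15.7 and 19.1 CPM in dorsal striatum and 15.2 and 22.0 in accumbens, a log2 fold change of 0.10 (adjusted p = 0.904 in edgeR). Tacr1, the substance P receptor gene of these interneurons, stood at 29.5 and 35.5 against 20.8 and 30.0 CPM (−0.36, adjusted p = 0.503 in edgeR), and Lhx6, a factor of interneurons from the medial ganglionic eminence, at 48.9 and 65.4 against 46.2 and 85.5 CPM. Nkx2-1, a factor of the same origin, was at 6.41 and 6.30 against 5.45 and 6.63 CPM. Each of these genes had its groups overlapping. Without accumbens replicate 1, 2 genes of the list were higher in accumbens, and without accumbens replicate 2, 3 were lower.

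Ngfr, the gene of the p75 receptor, a marker of cholinergic neurons of the basal forebrain, was at 6.73 and 12.9 CPM in dorsal striatum and 3.47 and 14.9 CPM in accumbens, so the 2 accumbens libraries were the extremes. Of the 10 tested genes of the list, 9 were higher in accumbens replicate 2 than in replicate 1, while 1 of 14 SPN markers was (50% of all tested genes). In dorsal striatum, 8 of the 10 were higher in replicate 2, as were 7 of 14 SPN markers (50% of all tested genes). Zic4, chosen after its values were seen, had counts of 43 and 109 in dorsal striatum against 0 and 22 in accumbens, where 0 counts allow up to 0.372 CPM.

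**Figure D5:**
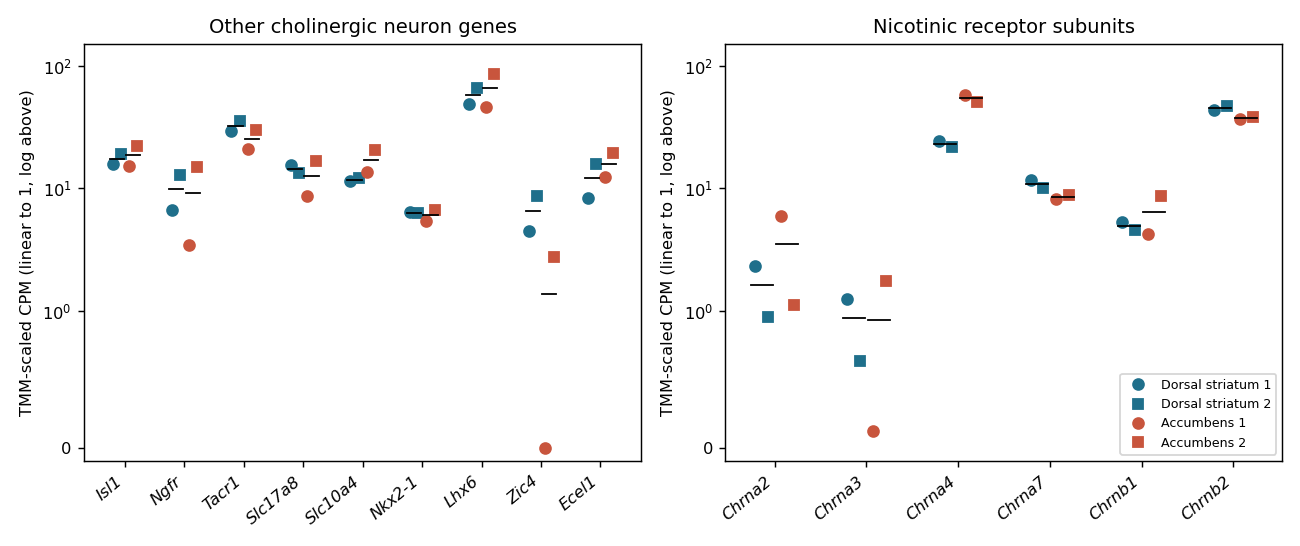
Level in each library of genes of 2 lists, 9 of the 10 tested other cholinergic neuron genes (left) and the 6 tested nicotinic receptor subunits (right). Levels are in TMM-scaled CPM on an axis that is linear up to 1 and logarithmic above. Points are libraries and bars the means of a region. The groups of Chrna4 lie apart, at 21.9 to 24.4 against 50.1 to 58.0 CPM. Accumbens replicate 1 is below replicate 2 in all 9 genes of the left panel, but not in the tested gene left out of it.

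Acetylcholine also acts on nicotinic receptors, ion channels of 5 subunits. Of 16 subunit genes 6 were tested, and 1 passed, higher in accumbens (0.994% of all tested genes). This was Chrna4, the alpha-4 subunit gene of the main high-affinity receptor of the brain. It stood at 24.4 and 21.9 CPM in dorsal striatum and at 58.0 and 50.1 CPM in accumbens, a log2 fold change of 1.22 (SE 0.20, adjusted p = 0.0431 in edgeR). The ratio had a 95% interval of 1.69 to 3.22. The edgeR adjusted p was 0.101 without dorsal striatum replicate 1 and 0.169 without dorsal striatum replicate 2, with fold changes of 1.28 and 1.14, and over all 15 alternatives it ran from 3.4e-05 to 0.169. Without accumbens replicate 2, 2 subunit genes were higher in accumbens. The gene of its partner, Chrnb2, named here after its values were seen, was at 43.8 and 46.9 against 37.0 and 38.0 CPM (−0.27, adjusted p = 0.47 in edgeR). Chrna4 had 0.556 and 0.468 counts per count of Chrnb2 in dorsal striatum and 1.57 and 1.32 in accumbens. Chrna6, a subunit gene of midbrain dopamine neurons, had 0 counts in all 4 libraries, which allows up to 0.239 to 0.375 CPM, and Chrnb3 had counts of 5 and 2 in dorsal striatum against 0 in both accumbens libraries. The median over the 6 tested subunits was 0.18.

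Genes that regulate nicotinic receptors had 0 of 10 tested members past the threshold (3 higher and 1 lower at an unadjusted p under 0.05, and 1 higher with DESeq2 and 1 with limma-voom). Of all tested genes, 10.9% were higher and 8.27% lower at that unadjusted p in edgeR. DESeq2 called 4.15% of all tested genes higher and limma-voom 2.14%. Lynx1, whose GPI-anchored protein damps the receptors, was at 229 and 248 against 210.0 and 220 CPM, and Ric3, a chaperone of their assembly, at 102 and 90.1 against 72.8 and 72.1 CPM (−0.41, adjusted p = 0.21 in edgeR). The median was 0.16. Leaving out accumbens replicate 1 gave 3 genes above the threshold in accumbens. Leaving out accumbens replicate 2 gave 3 such genes and 1 in the other direction, and leaving out either dorsal striatum replicate gave 1.

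Of 17 genes of choline uptake and acetylcholine breakdown 12 were tested, and none passed (1 at an unadjusted p under 0.05 in edgeR, 1 with DESeq2 and 1 with limma-voom). Each was lower in accumbens, where 8.27%, 2.29% and 0.835% of all tested genes were. Chka, the gene of choline kinase alpha, which commits choline to membrane lipid, was at 147 and 134 CPM in dorsal striatum and 74.5 and 95.5 CPM in accumbens. Both accumbens libraries were lower, and the log2 fold change was −0.73 (SE 0.17, adjusted p = 0.0795 in edgeR). It passed under 7 of 15 alternatives, among them DESeq2 (0.00348) and limma-voom (0.0459), in a range of 0.000322 to 0.398. Gpcpd1, whose enzyme splits glycerophosphocholine, was at 86.6 and 77.5 against 74.1 and 62.8 CPM (adjusted p = 0.446 in edgeR). The list's median was −0.10, and 2 members were lower in accumbens without accumbens replicate 1 and 2 without accumbens replicate 2.

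Downstream of the receptors, the genes of Gq signalling had 0 of 15 tested members past the threshold, with a median of −0.25. At an unadjusted p under 0.05 in edgeR 2 were higher and 5 lower, where 10.9% and 8.27% of all tested genes were. DESeq2 called 2 higher and 4 lower, where it called 4.15% and 2.29% of all tested genes. With limma-voom 2 were lower, where 0.835% of all tested genes were. Itpr1, the IP3 receptor gene, was at 1342 and 1496 CPM in dorsal striatum and 985 and 749 CPM in accumbens (−0.71, SE 0.15, adjusted p = 0.0624 in edgeR, and 5.11e-06 to 0.0677 over 14 alternatives, 10 of which passed it). Prkcb, a protein kinase C gene, was at 2651 and 2835 against 2265 and 1999 CPM (−0.36, adjusted p = 0.131 in edgeR). Without accumbens replicate 1 the count was 1 higher and 4 lower, without accumbens replicate 2 it was 4 and 4, and without dorsal striatum replicate 1 it was 0 and 1.

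The genes of Gi/o signalling gave 2 calls of 16, both lower in accumbens (0.29% of all tested genes), with a median of −0.15. They were Rgs9 (659 and 663 against 1590 and 1314 CPM, log2 fold change −1.14) and Rgs4 (314 and 235 against 619 and 573 CPM, −1.12), whose proteins speed the switching off of G proteins, Rgs4 also that of Gq. Rgs4 is a known brake on the M4 autoreceptor signal of cholinergic interneurons. The edgeR adjusted p was 0.0233 and 0.0278, and both passed under all 15 alternatives. Without accumbens replicate 1, 2 members were also higher in accumbens, and without accumbens replicate 2, 1 was higher and 3 were lower.

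Neighbouring neuron classes differed in single genes, where 0.994% of all tested genes passed with accumbens higher and 0.29% with dorsal striatum higher. Of 8 tested GABA interneuron genes Sst passed (193 and 143 CPM in accumbens against 53.5 and 58.4, log2 fold change 1.59, adjusted p = 0.0233 in edgeR), where leaving out accumbens replicate 1 gave 3 genes up, and leaving out accumbens replicate 2 gave 2 up and 3 down. Of 14 SPN genes Pdyn passed and was higher in accumbens (1.29) and Rgs9 was lower, where leaving out accumbens replicate 2 gave 6 up and 2 down, and leaving out accumbens replicate 1 gave 1 up and 3 down. The regional difference of cholinergic neuron genes was not tested against that of these lists.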

How the data were processed

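The values are unnormalized counts for each gene symbol, deposited by the authors with 1 file for each library. The submitters' processing notes name STAR 2.0.0e, HTSeq and build mm10. Which annotation and strand setting were used is not given in the sources used here. Reads of overlapping genes on opposite strands therefore cannot be told apart (Ache, Chrm1 and Chrm2 share 98, 329 and 142 exon bases with such genes). Entries without a gene were removed first: reads outside features were 27.5% to 35.4% of all reads, ambiguous reads 6.06% to 9.46% and reads with several alignments 6.98% to 10.2%. Groups came from the tissue in the labels. The labels do not name separate animals, so p-values reflect no more than the spread among these libraries, which may be technical.

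Counts were scaled with TMM, filtered with filterByExpr (14493 genes kept) and tested for region over all genes in R 4.3.3 by edgeR 4.0.16 (quasi-likelihood test), two-sided, with Benjamini-Hochberg adjustment and a threshold of 0.05. SE is the size of the fold change (log2) over the root of F, and 95% intervals use the total degrees of freedom of that test. The procedure was tested on simulated data. Alternatives are DESeq2 1.42.0, limma-voom (limma 3.58.1), 3 other scalings, 2 other filters, a robust fit, edgeR with legacy=FALSE, a replicate block, the 50 most abundant genes left out and each library left out in turn.

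Transcript lengths, GC content (for 85.7% of tested genes) and coordinates are from the GENCODE annotation of GRCm38, the assembly of mm10. The members and lists were chosen with earlier results of these data known. Besides the 10 genes, the rule names up to 4 genes past the threshold per list, or the 2 with the highest mean CPM where none passed, plus Slc17a7, Isl1, Ngfr, Nkx2-1, Drd1 and Drd2. Genes of the cortical list (apart from Neurod6), of the hypothalamus, septum and pallidum list and of the non-neuronal lists are otherwise given as sums or counts. Neurod6, Ppp1r1b, Chrna6, Chrnb3, Chrnb2 and Zic4 are named outside this rule. A gene that the rule takes is not reported here.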

Additional observations from a re-analysis of the deposited data

How the results depend on the processing

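The count of all genes past the threshold, 186 (144 up in accumbens, 42 down), was 933 with DESeq2 (601 and 332), 371 with legacy=FALSE (267 and 104), 431 with limma-voom (310 and 121), 1203 without a low-count filter (768 and 435) and 843 with the replicate block (551 and 292). With library size alone it was 244 (72 and 172), 29.5% of calls higher in accumbens in place of 77.4%, and with upper-quartile scaling 67.4%. Under library size alone the median over all genes was −0.15 in place of 0.02 (log2), and 5 of the 10 genes were then above 0 in place of 7. Leaving out 1 library gave 109 to 4464 calls (81 to 2386 higher and 28 to 2078 lower). The count of the 10 genes past the threshold, 0, was 1 with DESeq2 (1 higher in accumbens), 1 without a low-count filter (1 higher), and 0 to 3 with 1 library left out (0 to 3 higher). It was 0 under the other 9 alternatives. Of 150 values of the 10 genes under alternatives, 133 kept direction and side of the threshold, 5 newly passed and 12 changed sign.

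Sign changes, as log2 fold changes, were as follows. With library size alone Chrm2 was −0.065, Isl1 −0.074 and Lhx8 −0.132. Lhx8 was −0.012 with upper quartile, −0.043 with limma-voom and −0.017 with the replicate block. With 1 library left out in turn the values ran from −0.102 to 0.323 for Chrm2, −0.077 to 0.395 for Chrm3, −0.198 to 0.332 for Isl1, −0.312 to 0.576 for Lhx6, −0.511 to 0.426 for Lhx8, −1.516 to 0.578 for Ngfr, −0.223 to 0.059 for Nkx2-1, −0.729 to 0.216 for Slc18a3, −0.377 to 0.077 for Slc5a7. The cause was not tested.

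Equal replicate numbers are not known to share an animal. Deviations of the same-numbered libraries from their region means correlated at 0.03 over genes, and the replicate block, which raised the count of calls, called 0 of the 10 genes. Adjusted p under DESeq2 is NA for Chrm2, Chrm3 and Chrm5. Depth limits Chrm2, Chrm3 and Chrm5 most, at 18 to 100 counts a library.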
